A study of Homo sapiens with 30 samples.

Results

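Interferon response genes are genes that a cell switches on after it senses interferon or foreign nucleic acid. The list taken up here holds 42 of them, matched by gene identifier to symbol, and all 42 were found once each among the 60483 gene records of every library and passed the filter on low counts, which kept 18424 genes. They were followed in 30 libraries of PANC-1, a wild-type epithelial cell line from a human pancreatic ductal adenocarcinoma, grown as 3D tumoroids in 10 groups of 3 replicates. In 8 groups, 24 libraries in all, the tumoroids were hybrids with DSLBs, droplet-supported lipid bilayers that serve as synthetic cells, which presented the immune checkpoint receptor PD-1, either alone or with 1 further protein, which was TIGIT, LAG3, ICOS, CTLA4, CD40L, CD27 or CD2. Hybrids with plain DSLBs, to which no protein was coupled, and tumoroids without DSLBs were the controls. The paper reports that synthetic cells without coupled protein adsorb serum proteins, so protein-bearing here means bearing coupled protein. The comparisons ask how the genes differ with the presented proteins, with the co-presented ligand and with the droplet itself. PD-1 was on every protein-bearing DSLB, so PD-1 and the coupling of any protein to the droplet cannot be told apart, and the 8 comparisons with plain DSLBs share the same 3 control libraries. The cultures held 1 cell line, the labels name no other cell in them, and the labels call the replicates of a group biological. In such bulk samples, fewer expressing cells and less RNA per cell cannot be told apart.

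In textbook outline, type I interferons bind the receptor chains IFNAR1 and IFNAR2, whose kinases JAK1 and TYK2 phosphorylate STAT proteins, and a complex that holds STAT2 and IRF9 then binds a DNA element called ISRE in the promoters of its target genes. Interferon gamma signals through IFNGR1 and IFNGR2 to a different element, GAS, and IRF1, itself an interferon target, can bind ISRE as well. Cytosolic RNA and DNA sensors start the same programme through the relay proteins MAVS and STING1 and the factors IRF3 and IRF7. Epithelial cells use these genes as an antiviral defence, and tumour cells of several kinds are known to keep some of them on at a low level.

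Most of the promoters that could be read held the element. In the RefSeq promoter table for GRCh38.p14, which gives 250 bases before and 50 bases after each gene's start, 33 of the 42 genes had an entry, and IFIT2, MX2, OAS2, OASL, IRF7, IFITM2, TRIM22, USP18 and GBP2 were not in it. The ISRE core, spelled GAAANNGAAA and searched on both strands with overlaps allowed, was present in 22 of the 33 promoters (66.7%), against 996 of all 27305 promoters (3.65%). The GAS core, spelled TTCNNNGAA, a palindrome searched in the same way, was present in 10 of the 33 (30.3%), against 2152 of all 27305 (7.88%). Stretches of 60 bases from 8 promoters follow, read 5′ to 3′ on the gene's own strand, with each whole ISRE core match in capitals (a match on the opposite strand appears as its reverse complement). The first 6 belong to the genes with a match that were higher in all 8 protein-bearing groups, and ISG15 and OAS3 are shown because they have the element and varied between libraries or were lower in 4 of the groups.
IFIT1 (chr10:89392495-89392554, plus strand): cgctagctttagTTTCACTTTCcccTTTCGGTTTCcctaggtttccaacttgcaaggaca
IFIT3 (chr10:89327850-89327909, plus strand): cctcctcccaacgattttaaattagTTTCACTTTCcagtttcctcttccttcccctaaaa
IFIT5 (chr10:89414508-89414567, plus strand): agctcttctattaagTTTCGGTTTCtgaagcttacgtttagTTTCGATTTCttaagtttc
ISG20 (chr15:88638922-88638981, plus strand): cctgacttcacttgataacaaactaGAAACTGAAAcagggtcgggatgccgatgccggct
BST2 (chr19:17405720-17405779, minus strand): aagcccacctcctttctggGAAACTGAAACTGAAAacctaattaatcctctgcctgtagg
IFITM3 (chr11:320861-320920, minus strand): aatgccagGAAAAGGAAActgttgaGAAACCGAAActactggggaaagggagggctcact
ISG15 (chr1:1013365-1013424, plus strand): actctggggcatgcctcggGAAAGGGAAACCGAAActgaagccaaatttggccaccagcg
OAS3 (chr12:112938414-112938473, plus strand): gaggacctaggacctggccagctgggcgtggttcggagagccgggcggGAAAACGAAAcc
In BST2 and ISG15 the 2 matches overlap in one run of GAAA units, whereas in IFIT1, IFIT5 and IFITM3 the 2 matches in the window stand apart. A match describes letters and no bound factor.

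The libraries held between 21903971 and 60506800 summed expected counts. In 3 groups 1 library stood apart most from its 2 fellow replicates. By the chi-square of the counts, the distance was 4.18 times that between the fellows for PD-1 replicate 1, 8.89 times for PD-1/LAG3 replicate 3 and 6.06 times for DSLB-free replicate 2. These 3 had the highest such values, and no threshold was set. PD-1/CTLA4 replicate 2 (3.34 times) and PD-1/CD40L replicate 3 (2.49 times) came next and are not counted among those that stood apart. How the log2 fold changes moved without the 3 libraries is given with the counts. The keratins KRT8 and KRT18 averaged 3084 and 1476 TPM, and the T cell gene CD3E was at 0 in all 30 libraries. The 4 leukocyte genes together (PTPRC, CD3E, CD14 and CD68) summed to 23.6 to 52.0 TPM in the 24 protein-bearing libraries, 31.4 to 32.2 TPM with plain DSLBs and 24.2 to 33.3 TPM without DSLBs, nearly all of it CD68, a lysosomal membrane protein. MALAT1, a nuclear RNA, ranged from 1029 to 2869 CPM in protein-bearing hybrids, against 895 to 967 CPM with plain DSLBs and 1130 to 1189 CPM without DSLBs, and the part of either in the results on interferon genes was not tested.

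The genes differed widely in their level. On the length-scaled TPM scale, the mean over 30 libraries was over 10 TPM for 24 genes and under 1 TPM for 6. IFITM3, a membrane protein that hinders the fusion of viruses with endosomes, led with 558 TPM (457 to 625 over the libraries) and made up 38.1% of the summed TPM of the 42 genes. Its neighbours IFITM2 (139 TPM, 95.3 to 199.8) and IFITM1 (86.4 TPM, 40.3 to 110.1), the mitochondrial survival protein IFI6 (131 TPM, 93.2 to 200.2) and the ubiquitin-like modifier ISG15 (86 TPM, 59.7 to 132) completed the 5 highest. The ranges of IFITM2, IFI6, IFITM1 and ISG15 overlapped, so these neighbours had no order beyond the spread of the libraries. At the other end stood CMPK2 (0.718 TPM), EPSTI1 (0.654 TPM), GBP1 (0.638 TPM), TRIM22 (0.58 TPM), HERC6 (0.398 TPM) and IFI44L (0.144 TPM), and IFI44L had as few as 2 expected counts in a library.

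**Figure D1:**
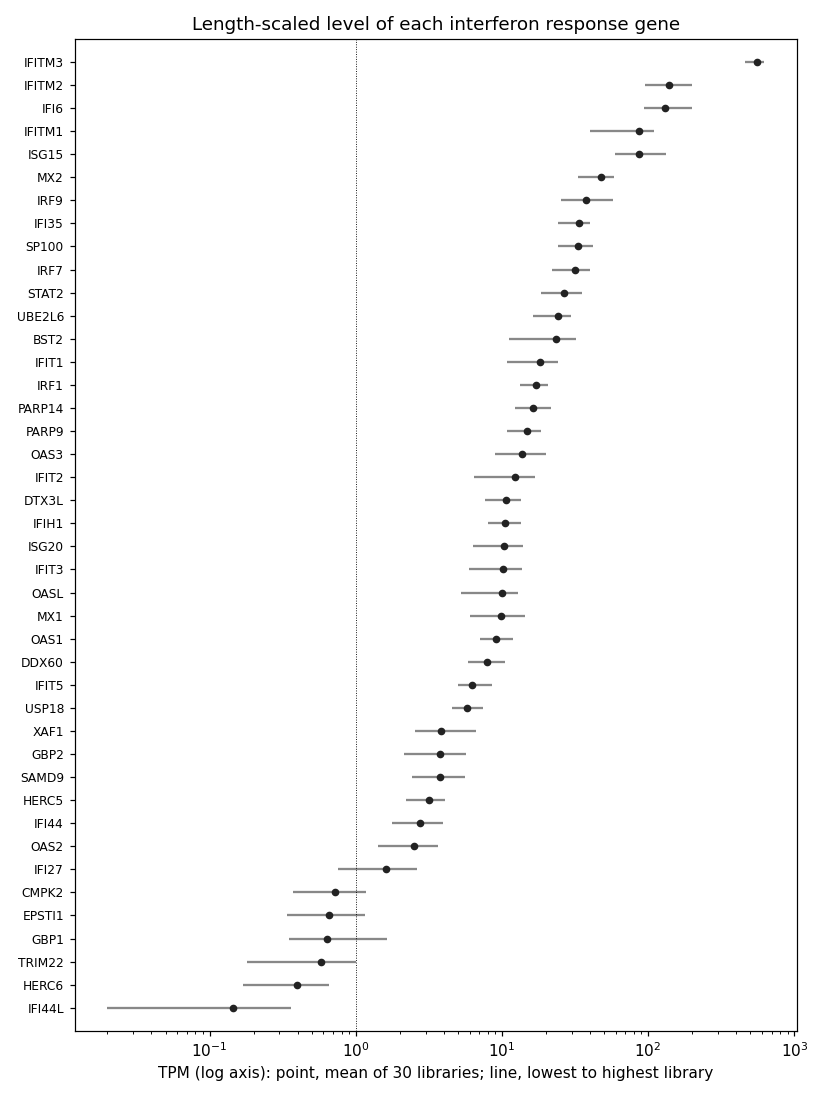
Mean TPM of each of the 42 genes over 30 libraries (point) with the lowest and highest library (line), on a log axis, with a dotted line at 1 TPM. IFITM3 stands at the top with 558 TPM, and 6 genes have a mean under 1 TPM.

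Against plain DSLBs, between 18 and 29 of the 42 genes were past the test and higher in a protein-bearing group, and at most 2 were past it and lower. The test was edgeR's quasi-likelihood F-test on all 30 libraries, with Benjamini-Hochberg adjustment over the 18424 genes and a threshold of 0.05. With PD-1 alone, 22 genes were higher and 0 lower, where 11.3% of all genes tested were higher and 10.7% lower. With PD-1/CD2, 29 were higher and 1 lower (14.1% and 15.4% of all genes). The counts were 18 higher and 1 lower with PD-1/CD27 (12.4% and 11.4%), and 23 higher and 0 lower with PD-1/CD40L (13.2% and 12.3%). With PD-1/CTLA4 they were 26 and 1 (17% and 17.2%), and with PD-1/ICOS 20 and 0 (9.81% and 9.8%). PD-1/LAG3 gave 22 higher and 2 lower (16.2% and 14.1%), and PD-1/TIGIT 18 and 1 (10.9% and 11.6%). The share of the 42 that were higher was thus 42.9% to 69.0%, against 9.81% to 17.0% of all genes.

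**Figure D2:**
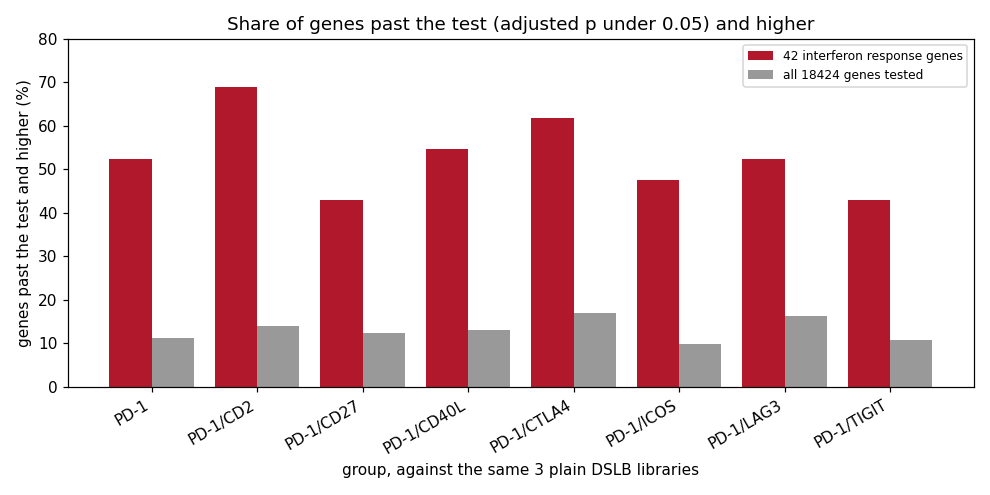
Percent of genes past the test and higher in each protein-bearing group against the same 3 plain DSLB libraries, for the 42 interferon response genes (red) and all 18424 genes tested (grey). The red bars run between 42.9% and 69.0% and the grey bars between 9.81% and 17.0%.

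The shift was moderate in size. The median log2 fold change of the 42 genes against plain DSLBs was 0.40 with PD-1, 0.52 with PD-1/CD2, 0.36 with PD-1/CD27, 0.47 with PD-1/CD40L, 0.45 with PD-1/CTLA4, 0.36 with PD-1/ICOS, 0.40 with PD-1/LAG3 and 0.33 with PD-1/TIGIT, whereas the median of all genes lay between 0.00 and 0.03. On the TPM scale the median of all genes was itself shifted, by -0.15 to -0.05 on the log2 scale, and the median of the 42 genes was 0.25 to 0.44, with 31 to 36 genes above 0 and 33 to 39 above the median of all genes. Over the 42 genes, 14 were past the test and higher in all 8 groups (IFITM2, IFITM3, SP100, IRF1, IRF7, UBE2L6, BST2, IFIT1, IFIT2, IFIT3, IFIT5, ISG20, OASL and GBP2), 32 were so in at least 1 group, and 3 were past the test and lower in at least 1 group (OAS3, STAT2 and MX2). No share over all genes is given for these 3 counts, and the 8 comparisons share their controls, so the counts have no background beside them. For 12 genes all 24 protein-bearing libraries lay above all 6 control libraries, namely IFITM2, IFITM3, SP100, UBE2L6, IFIT1, IFIT2, IFIT3, IFIT5, ISG20, OASL, GBP2 and HERC5, where 4.43% of all genes tested did. Over the 10 groups, 31 of the 42 differed, against 41% of all genes. Of the 184 calls of single genes against plain DSLBs, 129 were kept whichever 1 library was left out, 45 ended without plain DSLB replicate 3, 22 without plain DSLB replicate 2 and 17 without plain DSLB replicate 1. Without PD-1/CTLA4 replicate 3 the count past the test for PD-1/CTLA4 was 17 instead of 27, and without plain DSLB replicate 3 that for PD-1/ICOS was 13 instead of 20. Without the 3 libraries that stood apart the counts against plain DSLBs were between 21 and 30, and 4 of the 184 calls ended, all with PD-1/LAG3 (IFI6 at 0.47, GBP2 at 0.32, STAT2 at -0.25 and MX2 at -0.12). In the groups other than PD-1 and PD-1/LAG3 the log2 fold changes of these calls moved by at most 0.0058. With PD-1 the log2 fold change was 0.31 instead of 0.39 for IRF1 and 0.69 instead of 0.77 for GBP2. With PD-1/LAG3 it was 0.61 instead of 0.83 for ISG15, 1.04 instead of 1.24 for BST2, 0.57 instead of 0.70 for UBE2L6, 0.55 instead of 0.67 for USP18 and 0.53 instead of 0.44 for IFIT3.

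**Figure D3:**
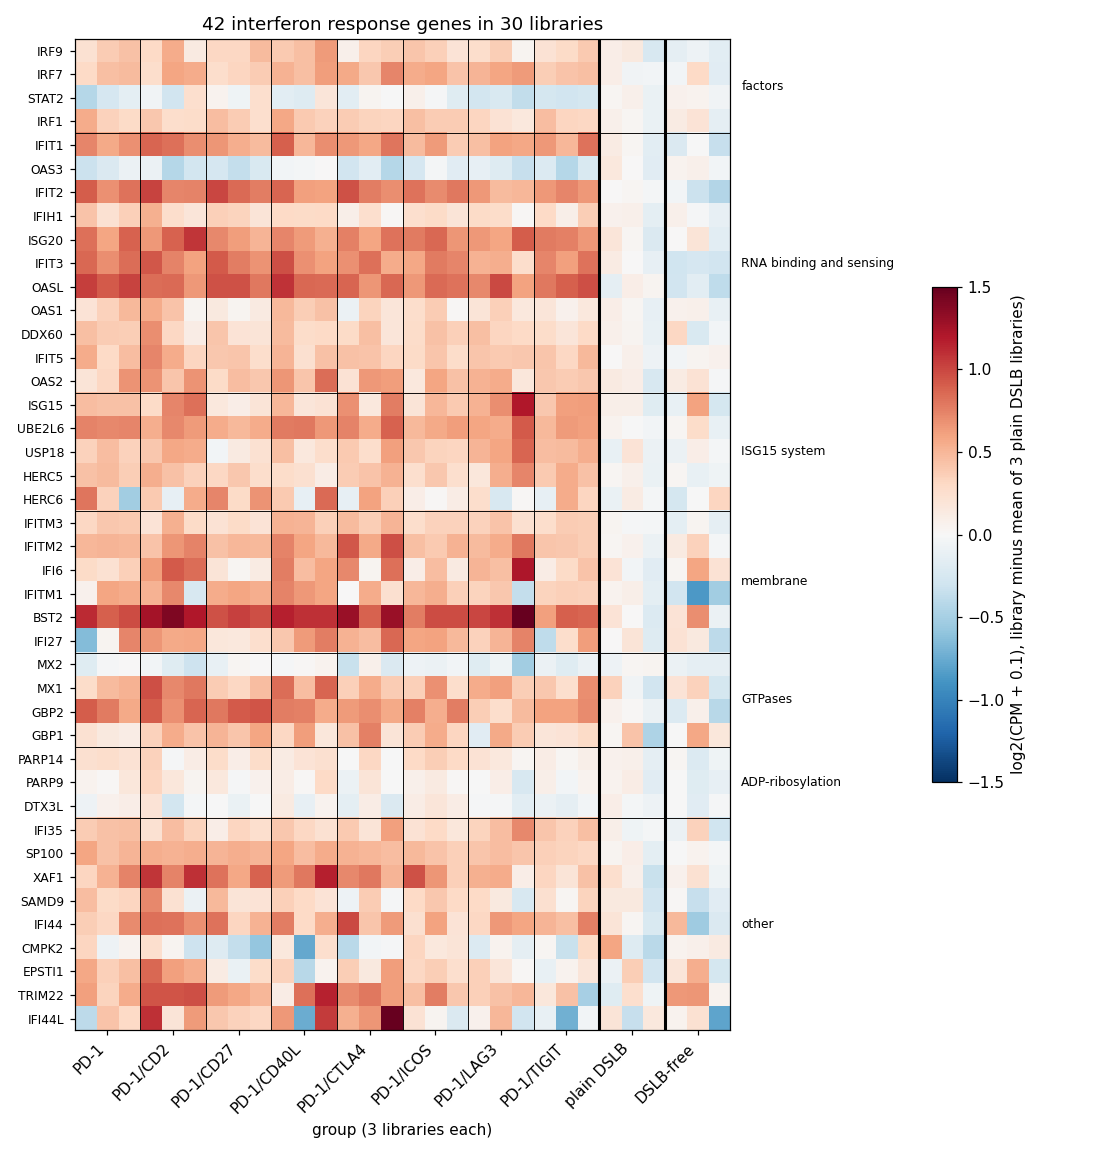
Level of each of the 42 genes (rows, grouped by role) in each of 30 libraries (columns, 3 per group), as log2(CPM + 0.1) minus the mean of the 3 plain DSLB libraries, red for higher and blue for lower. OASL, IFIT2, IFIT3 and BST2 are red across the 24 protein-bearing libraries, and PD-1/LAG3 replicate 3 is darkest for ISG15, IFI6 and BST2.

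Among the RNA-binding and RNA-sensing genes, the leading one was OASL, a catalytically inactive relative of the 2′-5′-oligoadenylate synthetases. OASL had 16.5, 15.3 and 16.4 CPM in the PD-1 libraries, against 7.31, 8.61 and 8.24 CPM with plain DSLBs and 6.55, 7.17 and 6.15 CPM without DSLBs. The lowest, median and highest of the 24 protein-bearing libraries, in which order such values follow from here on, were 12.2, 14.7 and 17.1 CPM. None of them overlapped with the controls. The log2 fold change of PD-1 over plain DSLBs was 1.00 (SE 0.10, adjusted p = 4.23e-08), a fold of 2.0, and over the 8 groups it ran from 0.78 to 1.00.

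The IFIT proteins bind viral RNA and block its translation, and their genes lie side by side on chromosome 10 (hg38 positions from GENCODE v44). IFIT2 (chr10:89283694-89309271) had 32.5, 27.9 and 30.6 CPM in the PD-1 libraries, against 17.4, 17.7 and 17 CPM with plain DSLBs and 16.9, 13.9 and 12.7 CPM without DSLBs. IFIT3 (chr10:89327307-89377473) had 20.4, 18.3 and 20.2 CPM with PD-1, against 12.2, 11.2 and 10.3 CPM with plain DSLBs and 9.09, 9.36 and 9.18 CPM without DSLBs. IFIT1 (chr10:89392546-89406487) had 26.2, 23.5 and 25.3 CPM with PD-1, against 17.2, 16.1 and 14.1 CPM with plain DSLBs and 13.5, 15.7 and 12.3 CPM without DSLBs. In each of the 3 genes every protein-bearing library was above every control library, with 24.2, 29 and 35.1 CPM over the 24 for IFIT2, 13.5, 18.5 and 22 CPM for IFIT3 and 20.6, 24.6 and 29.5 CPM for IFIT1. The log2 fold changes over plain DSLBs with PD-1 were 0.80 (SE 0.10, adjusted p = 8.83e-07) for IFIT2, 0.80 (SE 0.10, adjusted p = 2.56e-06) for IFIT3 and 0.66 (SE 0.10, adjusted p = 4.40e-05) for IFIT1. Over the 8 groups they ran from 0.54 to 0.88, 0.44 to 0.80 and 0.50 to 0.80, with PD-1/LAG3 at the low end for IFIT2 and IFIT3. LIPA overlaps these 3 loci on the opposite strand. The authors made the libraries with a directional kit, but the strand setting of the counting is not given in the sources used here. IFIT5, which lies outside LIPA, was higher by 0.33 to 0.55 on the log2 scale in the 8 groups, and its call with PD-1/ICOS ended without plain DSLB replicate 3 or PD-1/ICOS replicate 2.

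ISG20, an exonuclease that degrades RNA, had 6.47, 5.47 and 6.71 CPM with PD-1, against 4.11, 3.66 and 3.09 CPM with plain DSLBs and 3.62, 4.11 and 3.2 CPM without DSLBs. All 24 protein-bearing libraries (5.14, 6.0 and 7.66 CPM) lay above the 6 controls, and the log2 fold change with PD-1 was 0.77 (SE 0.13, adjusted p = 7.29e-05). The sensors of double-stranded RNA were past the test in fewer groups. IFIH1, which encodes the sensor MDA5, was past the test in 4 of 8 groups (0.12 to 0.33) and the helicase DDX60 in 6 (0.25 to 0.40). The synthetases OAS1 and OAS2, which are switched on by double-stranded RNA, were past it in 3 and 4 groups (0.11 to 0.43 and 0.37 to 0.64). All calls of IFIH1, DDX60 and OAS1 and 2 of the 4 of OAS2 ended when some 1 library was left out, most often plain DSLB replicate 3.

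OAS3, the largest synthetase, had a negative log2 fold change in all 8 groups. It ran from -0.29 to -0.03 and was past the test and lower with PD-1/CD2 (-0.27, adjusted p = 0.0274), PD-1/CD27 (-0.29, adjusted p = 0.0241), PD-1/CTLA4 (-0.29, adjusted p = 0.0147) and PD-1/TIGIT (-0.29, adjusted p = 0.0212) by edgeR. The protein-bearing libraries held 39.2, 45.4 and 53.3 CPM, against 59.3, 53.2 and 47.1 CPM with plain DSLBs, and overlapped with them. The 4 calls ended with the gene length trend removed and without plain DSLB replicate 1. OAS3 had an ISRE core match 12 bases before its start, as shown above, and another 143 bases before it.

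Of the membrane proteins, BST2 (tetherin, which holds budding viruses at the cell surface) showed differences near or above those of OASL. BST2 had 17.2, 14.8 and 15.5 CPM with PD-1, against 9.06, 7.87 and 6.83 CPM with plain DSLBs and 9.12, 12.8 and 7.39 CPM without DSLBs. The protein-bearing libraries (12.1, 16 and 23.6 CPM) were all above plain DSLBs, but the lowest of them lay below DSLB-free replicate 2. The log2 fold change over plain DSLBs was 0.99 (SE 0.16, adjusted p = 7.19e-05) with PD-1 and 1.28 (SE 0.16, adjusted p = 1.58e-06) with PD-1/CD2. With PD-1/LAG3 it was 1.24 (SE 0.16, adjusted p = 2.89e-06), and 1.04 without the libraries that stood apart.

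IFITM3 had 241, 256 and 253 CPM with PD-1, against 200.03, 191 and 189.8 CPM with plain DSLBs and 174, 199 and 176 CPM without DSLBs. The difference was small but separated all 24 protein-bearing libraries (224, 247 and 279 CPM) from the 6 controls, with a log2 fold change of 0.37 (SE 0.07, adjusted p = 4.47e-04) with PD-1 and 0.24 to 0.46 over the 8 groups. The calls for PD-1/TIGIT, PD-1/LAG3, PD-1/CD2 and PD-1/CD27 ended when each library's trend with gene length was removed, at 0.07 to 0.18 on the log2 scale, and that for PD-1/CD27 also without plain DSLB replicate 3 or PD-1/CD27 replicate 2.

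IFITM2 had 54.3, 54.6 and 54.1 CPM with PD-1, against 39, 40 and 36.1 CPM with plain DSLBs and 42, 48.9 and 37.5 CPM without DSLBs. The 3 PD-1 libraries lay above all controls, and IFITM2 was past the test in all 8 groups (0.39 to 0.83), with the highest value for PD-1/CTLA4, where the libraries held 73.1, 56.9 and 75.2 CPM. IFITM1 had 35.3, 50.7 and 49.5 CPM with PD-1, against 35.1, 35.9 and 30.4 CPM with plain DSLBs and 27.7, 18.5 and 23.4 CPM without DSLBs. It overlapped between the groups (26.4, 48 and 56.7 CPM over the 24) and was past the test with PD-1/CD40L alone (0.66, SE 0.21, adjusted p = 0.021), a call that ended without plain DSLB replicate 3 or PD-1/CD40L replicate 1 and with the trend in gene length or in GC content taken out (0.56 each). RSEM's posterior SD of the count, a measure of reads shared between similar genes, was 1.92% of the count for IFITM1, 1.44% for IFITM2 and 0.19% for IFITM3 (medians over libraries).

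IFI6 had 62.5, 60.2 and 65.9 CPM with PD-1, against 59.1, 50.1 and 45.7 CPM with plain DSLBs and 52.2, 77.4 and 59.7 CPM without DSLBs, and was not past the test there (0.28, SE 0.19, adjusted p = 0.324). It was higher with PD-1/CD2 (0.79, SE 0.19, adjusted p = 0.00383), PD-1/CD40L (0.61), PD-1/CTLA4 (0.56) and PD-1/LAG3 (0.76). PD-1/LAG3 replicate 3 held 119 CPM, against 73.4 and 70.1 CPM in the other PD-1/LAG3 libraries, and the call ended at 0.47 without the libraries that stood apart. The calls for PD-1/CD40L and PD-1/CTLA4 ended without plain DSLB replicate 2 or 3, and each also without replicate 1 or 3 of its own group. With tumoroids without DSLBs as the control, all 4 calls of IFI6 ended, at 0.50 with PD-1/CD2, 0.32 with PD-1/CD40L, 0.27 with PD-1/CTLA4 and 0.47 with PD-1/LAG3. IFI27, a mitochondrial protein with 10 to 42 expected counts per library, was not past the test in any group (0.13 to 0.71).

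In the ISG15 system, which attaches ISG15 to other proteins, UBE2L6, the conjugating enzyme, rose in all groups. UBE2L6 had 23.5, 23.1 and 23.4 CPM with PD-1, against 14.5, 14 and 13.6 CPM with plain DSLBs and 14.2, 17 and 13 CPM without DSLBs. The 24 protein-bearing libraries (19.6, 21.8 and 26.6 CPM) did not overlap with the controls, and the log2 fold change was 0.73 (SE 0.10, adjusted p = 2.76e-06) with PD-1 and 0.54 to 0.75 over the 8 groups.

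ISG15 itself varied between replicates in some groups. It had 38.8, 38.4 and 38.3 CPM with PD-1, against 30, 30.1 and 24.9 CPM with plain DSLBs and 26.2, 43 and 23.6 CPM without DSLBs. The PD-1 libraries lay close together and above plain DSLBs but below DSLB-free replicate 2, and the difference from plain DSLBs was not past the test (0.44, SE 0.20, adjusted p = 0.123). ISG15 was past it with PD-1/CD2 (0.63, SE 0.20, adjusted p = 0.021), PD-1/CTLA4 (0.55, SE 0.20, adjusted p = 0.0374) and PD-1/LAG3 (0.83, SE 0.20, adjusted p = 0.0032). The PD-1/LAG3 libraries held 40.7, 46 and 65.2 CPM, and the value was 0.61, still past the test, without the libraries that stood apart. The calls for PD-1/CD2 and PD-1/CTLA4 ended without plain DSLB replicate 3 (0.55 and 0.47) and once the trend with gene length was taken out (0.42 and 0.32), that for PD-1/CTLA4 also with the GC trend taken out (0.31). That for PD-1/CD2 also ended without its own replicate 2 or 3, and that for PD-1/CTLA4 without its own replicate 1 or 3 or plain DSLB replicate 1 or 2.

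USP18, the protease that removes ISG15 and dampens the interferon receptor, had 8.22, 8.9 and 8.22 CPM with PD-1, against 5.96, 7.42 and 6.06 CPM with plain DSLBs and 6.06, 6.89 and 6.29 CPM without DSLBs. It was past the test in 6 groups, and in PD-1 libraries the log2 fold change was 0.38 (SE 0.11, adjusted p = 0.0138). That call ended without plain DSLB replicate 1 or 3 or PD-1 replicate 2 (0.33 to 0.34), that for PD-1/CTLA4 without PD-1/CTLA4 replicate 3 and that for PD-1/ICOS when any PD-1/ICOS library or plain DSLB replicate 1 or 3 was left out. With PD-1/CD27 the log2 fold change was 0.10 (SE 0.11, adjusted p = 0.575), and with PD-1/LAG3 0.67 (SE 0.11, adjusted p = 5.03e-05). The ligase HERC5 was past the test in 7 groups (0.21 to 0.51), and its relative HERC6, at 0.398 TPM, in none (0.01 to 0.67). The HERC5 calls for PD-1/CD27 and PD-1/ICOS ended without plain DSLB replicate 1 or 3 and without a filter on low counts. That for PD-1/CD27 also ended without PD-1/CD27 replicate 1 or 2 and with the GC trend removed. That for PD-1/ICOS also ended when any 1 PD-1/ICOS library was left out, with DESeq2 and with RLE factors.

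**Figure D4:**
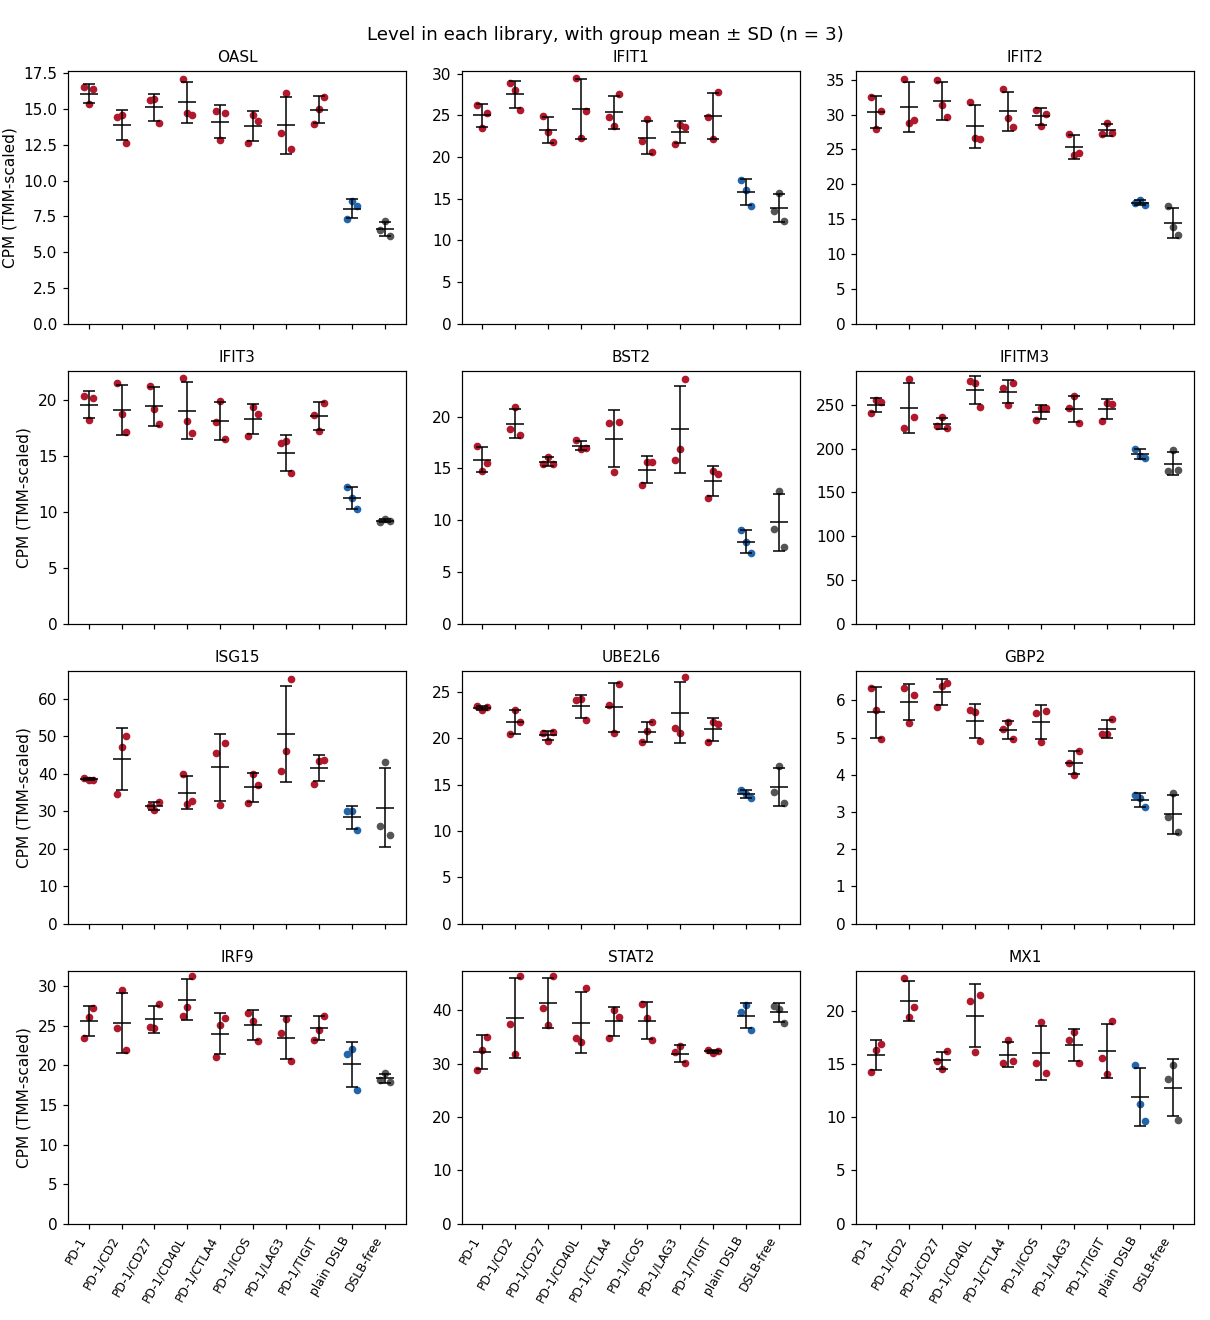
CPM in each library for 12 of the genes, with the mean ± SD of each group (n = 3), protein-bearing groups in red, plain DSLB in blue and DSLB-free in grey. OASL, IFIT1, IFIT2, IFIT3, IFITM3, UBE2L6 and GBP2 separate all 24 protein-bearing libraries from the 6 controls, while ISG15, STAT2 and MX1 overlap.

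The transcription factors of the pathway split. IRF1 had 24.5, 21.2 and 20.4 CPM with PD-1, against 17.6, 17.1 and 15.5 CPM with plain DSLBs and 18.2, 19.3 and 15.2 CPM without DSLBs. The 24 protein-bearing libraries (18.7, 21.2 and 25.1 CPM) were all above plain DSLBs and overlapped with DSLB-free libraries. IRF1 was higher by 0.39 (SE 0.09, adjusted p = 0.00173) with PD-1 and by 0.23 to 0.45 over the 8 groups, and the call for PD-1/LAG3 ended when any 1 of the 6 libraries compared was left out and in a fit of those 6 alone. IRF7, which drives interferon genes, was past the test in all 8 groups (0.32 to 0.58), with the call for PD-1/CD27 ending without plain DSLB replicate 2 or 3 or PD-1/CD27 replicate 2 or 3.

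IRF9 had 23.5, 26.1 and 27.2 CPM with PD-1, against 21.4, 22.1 and 16.9 CPM with plain DSLBs and 18.2, 19 and 17.9 CPM without DSLBs. It was past the test in 5 groups, with a log2 fold change of 0.34 (SE 0.11, adjusted p = 0.0252) with PD-1. The calls for PD-1, PD-1/ICOS, PD-1/CD27 and PD-1/CD2 ended without plain DSLB replicate 3 (0.20 to 0.24) and once the trend with gene length was taken out (0.18 to 0.25). Each also ended without at least 1 library of its own group.

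STAT2, the partner of IRF9, had 28.9, 32.6 and 35 CPM with PD-1, against 39.8, 40.9 and 36.3 CPM with plain DSLBs and 40.9, 40.2 and 37.6 CPM without DSLBs. The 3 PD-1 libraries were below plain DSLBs, and the difference was not past the test (-0.28, SE 0.11, adjusted p = 0.0706). STAT2 was past it and lower with PD-1/LAG3 (-0.29, SE 0.11, adjusted p = 0.045), which ended at -0.25 without the libraries that stood apart and also when plain DSLB replicate 1 or 2 or any 1 PD-1/LAG3 library was left out. Over the 8 groups it ran from -0.29 to 0.08, so IRF9 and STAT2 pointed in opposite directions in 7 of the 8, without a test of that difference.

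Among the GTPases, GBP2, a guanylate-binding protein known as a target of interferon gamma, had 6.32, 5.75 and 4.96 CPM with PD-1, against 3.47, 3.37 and 3.13 CPM with plain DSLBs and 2.88, 3.5 and 2.46 CPM without DSLBs. All 24 protein-bearing libraries (4.01, 5.46 and 6.47 CPM) were above the controls, by 0.77 (SE 0.12, adjusted p = 2.82e-05) with PD-1 and 0.38 to 0.90 over the 8 groups. The lowest value, with PD-1/LAG3, lost its call without PD-1/LAG3 replicate 3 or plain DSLB replicate 3. Its paralog GBP1, at 0.638 TPM, was not past the test in any group (0.11 to 0.49).

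MX1, which traps viral nucleocapsids, had 14.2, 16.3 and 16.9 CPM with PD-1, against 14.9, 11.2 and 9.61 CPM with plain DSLBs and 13.6, 14.9 and 9.76 CPM without DSLBs. Plain DSLB replicate 1 was above PD-1 replicate 1, and the difference was not past the test (0.40, SE 0.16, adjusted p = 0.067). MX1 was past it in 5 groups, most with PD-1/CD2 (0.80, SE 0.16, adjusted p = 3.41e-04) and PD-1/CD40L (0.71, SE 0.16, adjusted p = 0.00161). The calls for PD-1/CTLA4, PD-1/LAG3 and PD-1/TIGIT ended without plain DSLB replicate 2 or 3, among other libraries, and with tumoroids without DSLBs as the control (0.32 to 0.40). MX2, a nuclear relative, ran from -0.24 to 0.02 and was past the test and lower with PD-1/LAG3 (-0.24, SE 0.09, adjusted p = 0.0483), a call that ended when any 1 plain DSLB library or PD-1/LAG3 replicate 3 was left out and, at -0.12, with tumoroids without DSLBs as the control.

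The ADP-ribosylation genes PARP9 and DTX3L, which form a complex and share a promoter region, were past the test in no group (-0.05 to 0.18 and -0.09 to 0.13). The macrodomain protein PARP14 was past it with PD-1/ICOS alone (0.32, SE 0.09, adjusted p = 0.0089), and no longer without plain DSLB replicate 3. Of the 9 other genes, SP100, a protein of nuclear PML bodies, was higher throughout. It had 45.2, 40.5 and 42.8 CPM with PD-1, against 30.8, 32.1 and 27.1 CPM with plain DSLBs and 29.7, 30.9 and 29.4 CPM without DSLBs. The 24 protein-bearing libraries (37.2, 42.1 and 45.2 CPM) did not overlap with the controls, and the log2 fold change was 0.51 (SE 0.06, adjusted p = 2.61e-07) with PD-1 and 0.33 to 0.54 over the 8 groups. XAF1, a pro-apoptotic protein, was past the test in 6 groups (0.29 to 0.96) and IFI35 in 5 (0.23 to 0.52), with 2 and 4 of these calls ending when some 1 library was left out. TRIM22 and IFI44 were past it in 2 groups each, EPSTI1 and IFI44L in 1, and SAMD9 and CMPK2 in none. When some 1 library was left out, 1 of the 2 calls of TRIM22 and of IFI44 ended, as did the only calls of EPSTI1 and IFI44L. With tumoroids without DSLBs as the control, both TRIM22 calls (1.08 and 0.82) ended at 0.53 and 0.27. The calls of OASL, IFIT1, IFIT2, IFIT3, BST2, ISG20, UBE2L6 and SP100 were kept in all 8 groups under every alternative run, which included leaving out each library in turn and taking tumoroids without DSLBs as the control.

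**Figure D5:**
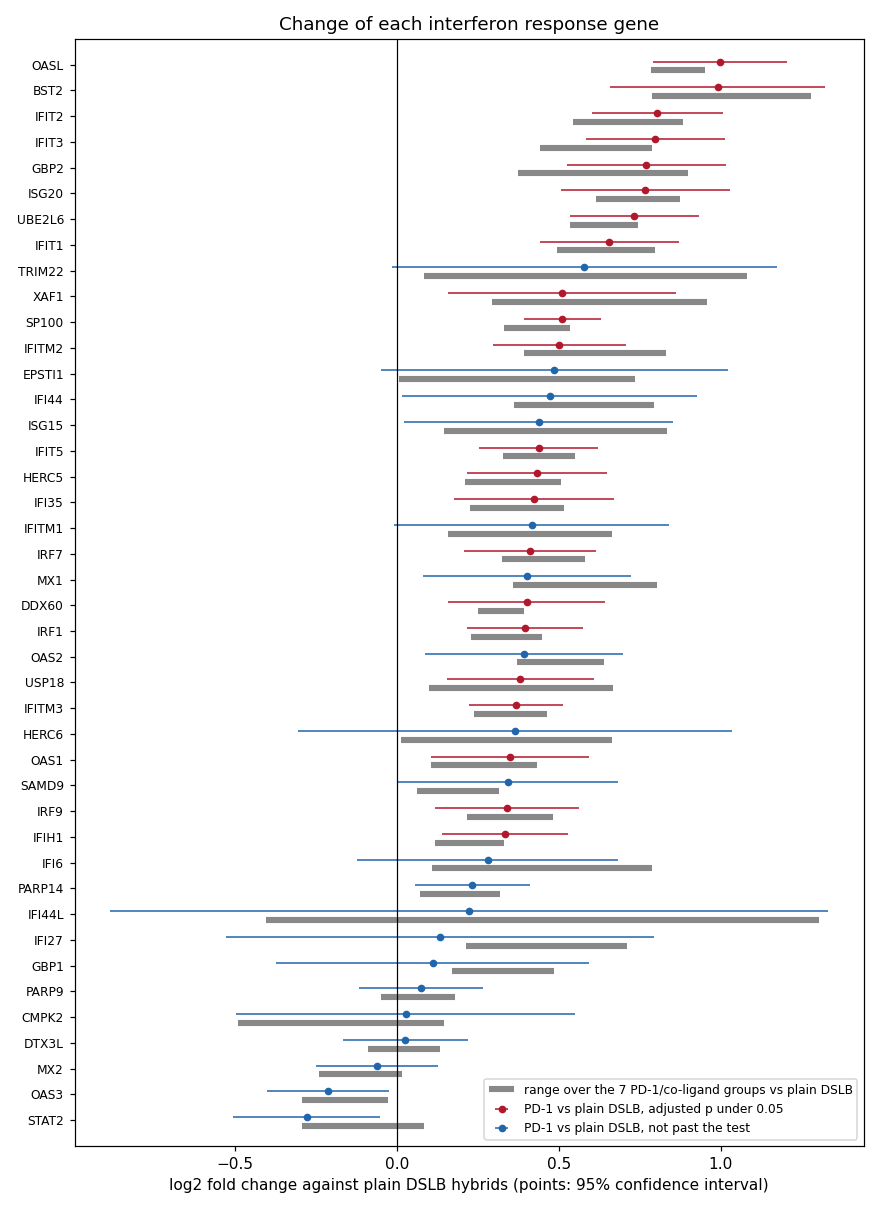
Log2 fold change of each of the 42 genes with PD-1 DSLBs over plain DSLBs (points with 95% confidence interval, red where past the test and blue where not) and the range over the 7 groups with a co-presented ligand over plain DSLBs (grey bars). OASL and BST2 are at the top with 1.00 and 0.99, and STAT2 is at the bottom with -0.28.

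The comparison with PD-1 alone asks what a co-presented ligand adds. None of the 42 was past the edgeR test in any of the 7 comparisons with PD-1. The background of all genes past it was 2.29% for PD-1/CD27, 1.23% for PD-1/CD2, 0.0434% for PD-1/CTLA4, 0.0109% for PD-1/CD40L and 0% for PD-1/ICOS, PD-1/LAG3 and PD-1/TIGIT. At an unadjusted p under 0.05 there were 6 of 42 with LAG3 (14.3%, against 5.71% of all genes), 5 with CD2 (11.9%, against 15.4%), 4 with CD27 (9.52%, against 17%), 4 with CTLA4 (9.52%, against 13.3%), 2 with ICOS (4.76%, against 10.2%) and 1 each with CD40L (2.38%, against 11.3%) and TIGIT (2.38%, against 3.7%). DESeq2 called 1 gene, STAT2 with PD-1/CD27. Without a filter on low counts edgeR called 3 with CD2, 2 with CD27, 1 with CD40L, 2 with CTLA4 and 3 with LAG3, and on the 6 libraries alone it called 2 with CD27. No count over all genes is given for these settings or for DESeq2, so these calls have no background beside them. The medians of the 42 log2 fold changes over PD-1 lay between -0.06 and 0.06, and the 95% intervals reached a median of 0.23 to either side.

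Some genes had an unadjusted p under 0.05 against PD-1 alone without passing the adjusted test. With every ligand but LAG3, their share among the 42 was below that of all genes, as given above. The genes given here were chosen after their values were seen. With PD-1/CD27, STAT2 had 40.4, 37.2 and 46.4 CPM, against 28.9, 32.6 and 35 CPM with PD-1, a log2 fold change of 0.36 (SE 0.11, adjusted p = 0.0736). With PD-1/CD2, IFI6 (0.51, SE 0.19, adjusted p = 0.197), MX1 (0.40, SE 0.15, adjusted p = 0.188) and XAF1 (0.45, SE 0.16, adjusted p = 0.167) had the largest positive values among those with p under 0.05. IFITM2 with PD-1/CTLA4 was at 0.33 (SE 0.10, adjusted p = 0.192). With PD-1/LAG3, IFIT3 was at -0.35 (SE 0.10, adjusted p = 0.82) and GBP2 at -0.40 (SE 0.11, adjusted p = 0.82). Both groups of that comparison hold a library that stood apart, which also limits the count with LAG3 at an unadjusted p under 0.05. Without the libraries that stood apart, IFIT3 over plain DSLBs was 0.53 with PD-1/LAG3 and 0.77 with PD-1. GBP2 was then 0.32 and 0.69. A test for any difference among the 8 groups with PD-1 called 1 of the 42, USP18, a share below the 2.88% of all genes. USP18 had 6.24, 7.12 and 7.56 CPM with PD-1/CD27, the group with the lowest values, and 9.23, 9.8 and 11.9 CPM with PD-1/LAG3, the group with the highest. The 11.9 CPM belonged to PD-1/LAG3 replicate 3, which stood apart. USP18 with PD-1/LAG3 was 0.55 over plain DSLBs without the libraries that stood apart, instead of 0.67.

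Plain DSLBs gave no call among the 42 against tumoroids without DSLBs by edgeR or DESeq2, where 0.0109% of all genes were past the edgeR test, and 1 (IFITM1) by edgeR without a filter on low counts. No count over all genes is given for the fit without the filter. Unadjusted p was under 0.05 for 4 genes (9.52%, against 6.1% of all genes), all with a positive value, namely IFITM1 (0.55, SE 0.21, adjusted p = 0.754), IFIT3 (0.29, SE 0.11, adjusted p = 0.754), OASL (0.28, SE 0.10, adjusted p = 0.754) and IFIT2 (0.27, SE 0.10, adjusted p = 0.754). In 5 of the 42 genes (11.9%), OASL, IFIT2, IFIT3, IFITM1 and MX2, the 3 plain DSLB libraries lay above the 3 DSLB-free libraries, where 6.91% of all genes did. The median over the 42 was close to 0, and the 95% intervals reached a median of 0.24 to either side.

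The interferons themselves were near the limit of detection. Of 21 ligand genes, 10 were at 0 TPM in all 30 libraries, and only IFNE and IFNL1 passed the filter on low counts. The summed level of the 21 was 0.46 to 2.65 TPM in protein-bearing hybrids, 0.83 to 1.23 TPM with plain DSLBs and 0.82 to 1.58 TPM without DSLBs. IFNE, an epithelial type I interferon, had 0.0783, 0.227 and 0.401 CPM (lowest, median and highest of 24) in protein-bearing hybrids, against 0.458, 0.553 and 0.848 CPM with plain DSLBs and 0.507, 0.601 and 0.822 CPM without DSLBs, and was past the test and lower in all 8 groups (-2.20 to -1.10 on the log2 scale). The lambda interferon IFNL1 had a median of 6 expected counts (1 to 20) in protein-bearing hybrids, against 2 with plain DSLBs (1 to 6) and 2 without DSLBs (1 to 9), and was past the test in none. IFNL3, which did not pass the filter, was above 0 in 23 of the 24 protein-bearing libraries with at most 12.8 expected counts, against 0 of 3 with plain DSLBs and 1 of 3 without DSLBs, and IFNL2 was above 0 in 23 of 24, 3 of 3 and 3 of 3. IFNL2 and IFNL3 are near-identical copies, so that the split of reads between them is uncertain.

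The receptors and kinases were expressed throughout. IFNGR2 and JAK1 were the highest of the 9 at 71.1 and 64.2 TPM, and all 9 passed the filter on low counts. None of the 9 was higher in any protein-bearing group. In PD-1/CD2 and PD-1/CTLA4 2 were lower (22.2%, against 15.4% and 17.2% of all genes), and in each of the other groups 1 was (11.1%, against 9.8% to 14.1%). IFNLR1, the receptor of lambda interferons, was lower in all 8 (-0.79 to -0.49), and JAK1 with PD-1/CD2 (-0.21) and PD-1/CTLA4 (-0.19).

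Of 11 genes of nucleic acid sensing and relay, 10 were tested, and 2 were higher in each protein-bearing group (20%, against 9.81% to 17% of all genes). Of the 10, 3 were lower with PD-1/CTLA4 (30%, against 17.2%), 2 with PD-1/LAG3, PD-1/CD2 and PD-1/CD27 (20%, against 11.4% to 15.4%) and 1 with the others (10%, against 9.8% to 12.3%). DHX58, the sensor LGP2 and an interferon target itself, had 7.87, 9.35 and 11.3 CPM in protein-bearing hybrids, against 4.88, 5.33 and 5.63 CPM with plain DSLBs and 4.83, 6.55 and 9.01 CPM without DSLBs, and was higher in all 8 groups (0.63 to 0.93). STING1, the relay of DNA sensing, had 17.7, 22.4 and 26.4 CPM, against 13.4, 13.5 and 14.3 CPM with plain DSLBs and 12, 13.2 and 14.5 CPM without DSLBs, and was higher in all 8 (0.46 to 0.85) with no overlap. MAVS, the relay of RNA sensing, had 96.9, 119 and 135 CPM, against 151, 151 and 152 CPM with plain DSLBs and 149, 157 and 158 CPM without DSLBs, and was lower in all 8 (-0.43 to -0.21), also with no overlap. ADAR was lower in 3 groups (-0.30 to -0.21) and the kinase EIF2AK2 lower in 2 (-0.34 and -0.28). IRF3 and ADAR were the highest of the list, at 78.4 and 76.8 TPM.

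Of 6 negative regulators, 1 was higher in 5 groups (16.7%, against 9.81% to 17% of all genes) and none in PD-1/CD2, PD-1/LAG3 and PD-1/TIGIT. With PD-1/LAG3 3 were lower (50%, against 14.1%), with PD-1/CD2, PD-1/CD27, PD-1/CTLA4 and PD-1/TIGIT 2 (33.3%, against 11.4% to 17.2%) and with the others 1 (16.7%, against 9.8% to 12.3%). SOCS3, an inhibitor of JAK kinases, was past the test and lower in 7 groups (-0.34 to -0.26 there), the phosphatase PTPN11 lower in 6 (-0.36 to -0.20) and PIAS1 lower in 1 (-0.33). IRF2, a repressor at ISRE sites, was higher in 5 (0.20 to 0.36). PTPN11 and PTPN2 were the highest of the list at 48.5 and 31.5 TPM.

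Cell type markers moved as well. Of 5 epithelial markers, KRT19, KRT18 and KRT8 were higher in all 8 groups (0.71 to 1.09, 0.41 to 0.68 and 0.36 to 0.59). That was 60%, against 9.81% to 17% of all genes. The adhesion protein CDH1 was lower in all 8 (-0.73 to -0.58), or 20%, against 9.8% to 17.2%, and KRT7 was past the test in none. Of 4 leukocyte markers, 3 were tested. CD14 was higher in all 8 (1.04 to 1.53) at 0.56 to 1.60 TPM, against 0.29 to 0.54 TPM with plain DSLBs and 0.52 to 0.68 TPM without DSLBs. CD68 was higher in 5 groups, so that 33.3% to 66.7% of the 3 were higher in a group, against 9.81% to 17% of all genes. PTPRC, at 0 to 0.33 TPM, was lower in 2 groups (33.3%, against 12.3% and 17.2%). LUM and CDH5, the tested markers of fibroblasts and endothelium, were past the test in none. The part of these in the results on the 42 genes was not tested.

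Genes with and without the ISRE core in the promoter table were set side by side. Of the 22 with a match, 6 were past the test and higher in all 8 groups and 17 in at least 1, with a median log2 fold change of 0.40 over plain DSLBs. Of the 11 without one, 3 (IRF1, SP100 and UBE2L6) were higher in all 8 and 7 in at least 1, with a median of 0.34. No share over all genes with or without the element is given beside these counts. MX1, IFITM1, IFI27 and OAS3 hold the element and were not higher in all groups, so genes of both kinds held these letters.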

How the data were processed

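RNA-seq of bulk PANC-1 cultures was analysed in 30 libraries, 10 groups of 3, assigned from the sample labels. The authors aligned trimmed single-end reads to the hg38 genome by STAR and quantified genes by RSEM. Their processing notes add Trim Galore 0.3.3, SAMtools 1.3.1 and FastQC 0.11.2. The library kit was a directional one, but annotation release and the strand setting of the counting were not given in the sources used here. As deposited, the expected counts are RSEM estimates per gene that were not normalized. The deposited TPM values are length-scaled by the authors and served only for levels between genes. The deposited files also hold effective lengths and posterior SDs of the counts, used only for the length check and for shared reads. Of 60483 records, 56321 matched a symbol.

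Expected counts were rounded, filtered with filterByExpr by group (18424 genes kept) and scaled by TMM, which also scales the CPM values given. Groups were compared with edgeR 4.0.16 (R 4.3.3), with a single quasi-likelihood model of the 30 libraries and its F-test. P-values were adjusted by Benjamini-Hochberg over the genes kept, at a threshold of 0.05. SE and 95% intervals come from the same model, and p-values measure the spread between these replicates. The scripts were tested on simulated data with known changes. The common biological coefficient of variation was 0.0942.

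Alternatives were DESeq2 1.42.0, RLE factors, no filter on low counts, removal of a gene length trend, a replicate block, the 6 libraries compared alone and leaving out each library in turn. Removal of a GC trend, leaving out 3 libraries that stood apart, tumoroids without DSLBs as the control and the test among 8 groups were chosen after seeing the data. Calls of single genes under the alternatives were read for the 42 genes only. The 42 genes and all lists were chosen with earlier results of these data known, and 2 genes of the lists beside the 42 are not reported here. Values in every library are given for ISG15, IFIT1, MX1, IRF1, STAT2 and IRF9, for the 5 genes with the highest mean TPM, and for up to 12 genes past a test, by smallest p over the 10 groups; values for OAS3, and for single genes against PD-1 alone, were added after they were seen. Promoters came from RefSeq (GRCh38.p14), gene positions from GENCODE v44, and files were handled in Python 3.11.15 with pandas 2.3.3, numpy 2.4.6 and matplotlib 3.10.9.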

Additional observations from a re-analysis of the deposited data

How the results depend on the processing

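The counts of the 42 genes past the test against plain DSLBs were within 1.5 times the reported ones under DESeq2, RLE factors, no filter on low counts, removal of the gene length or GC trend, the 6 libraries alone, the control without DSLBs and the set without the 3 libraries that stood apart. Leaving out 1 library at a time gave 17 to 22 genes for PD-1, 23 to 29 for PD-1/CD2, 14 to 18 for PD-1/CD27, 19 to 24 for PD-1/CD40L, 17 to 25 for PD-1/CTLA4, 13 to 19 for PD-1/ICOS, 19 to 22 for PD-1/LAG3 and 17 to 19 for PD-1/TIGIT, and 27 to 32 for the test over 10 groups. Against PD-1 it gave 0 to 1 for PD-1/CD27 (STAT2, without PD-1/CD27 replicate 2) and for PD-1/CTLA4 (IFITM2, without PD-1/CTLA4 replicate 2), and 0 to 0 for the other ligands and for plain DSLBs against tumoroids without DSLBs. Without a filter on low counts, the counts against PD-1 were 3 for PD-1/CD2 (IFI6, MX1 and XAF1), 2 for PD-1/CD27 (ISG15 and STAT2), 1 for PD-1/CD40L (IFI6), 2 for PD-1/CTLA4 (IFI6 and IFITM2) and 3 for PD-1/LAG3 (IFI6, IFIT3 and ISG15), and 1 for plain DSLBs against tumoroids without DSLBs (IFITM1). PD-1/CD27 against PD-1 gave 1 with DESeq2 (STAT2), 2 with the gene length trend removed (UBE2L6 and USP18) and 2 on the 6 libraries alone (ISG15 and STAT2). The cause was not tested, and no counts over all genes are given for these settings. Among the 8 groups with PD-1, the test over groups gave 1 instead of 31, where all genes gave 2.88% instead of 41%. Of the 184 calls of single genes against plain DSLBs, 26 ended with the gene length trend removed, and none changed sign in 2760 refits. With tumoroids without DSLBs as the control, 17 of the 184 ended: all 4 of IFI6 (0.27 to 0.50), both of TRIM22 (0.27 and 0.53), ISG15 with PD-1/CD2 (0.50) and PD-1/CTLA4 (0.43), MX1 with PD-1/CTLA4, PD-1/LAG3 and PD-1/TIGIT (0.32 to 0.40), IRF1, MX2 and OAS2 with PD-1/LAG3 (0.16, -0.12 and 0.32), IFITM2 with PD-1/TIGIT (0.24), EPSTI1 with PD-1/CD2 (0.56) and DDX60 with PD-1/CTLA4 (0.29). The authors describe 3 parallel biological replicates of the whole set of conditions, while the main model held no replicate block. Same-numbered libraries of different groups correlated at over 0.1 in 17 of 135 pairs. Their mean was 0.0104, against -0.00516 for differently numbered ones, and 13 of 30 libraries correlated best with their own number. These weak correlations do not settle whether the numbers pair the samples. With the replicate block the counts were 22, 30, 20, 25, 26, 21, 24 and 21 for PD-1, PD-1/CD2, PD-1/CD27, PD-1/CD40L, PD-1/CTLA4, PD-1/ICOS, PD-1/LAG3 and PD-1/TIGIT against plain DSLBs, 0 against PD-1 and for plain DSLBs against tumoroids without DSLBs, and 32 over the 10 groups, and 1 call of a single gene ended (IFI44L with PD-1/CTLA4).

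The data come from 1 cell line with 3 replicates a group, and all 8 comparisons with plain DSLBs rest on the same 3 control libraries, of which replicate 3 changed the most calls. The 95% intervals of the differences between ligands reached a median of 0.23 to either side. Genes under 1 TPM, such as IFI44L with 2 to 31 expected counts, carry wide errors.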

Other observations

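The 42 genes varied together more than genes at large, given here as a description over libraries that share depth and composition. Within groups, the mean pairwise correlation of their log CPM deviations over 30 libraries was 0.148, against 0.00134 over all genes tested, and over the 10 group means it was 0.491, against 0.00211. The group means hold the same shift against the controls that is reported above, so the value adds no separate evidence. These are means of signed values, in which positive and negative correlations cancel. The libraries that stood apart were included. The median share of a gene's variance that lay between groups was 62.8% for the 42 genes, against 51.5% for all genes.

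The summed level of the 42 genes was 1120 to 1303 CPM in the 24 protein-bearing libraries (median 1190), against 887 to 999 CPM with plain DSLBs and 878 to 988 CPM without DSLBs. Mitochondrial genes took 1.71% to 7.0% of counts in protein-bearing libraries, 4.73% to 5.19% with plain DSLBs and 3.19% to 4.98% without DSLBs, and its part in the difference was not tested.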
